A study of Mus musculus with 10 samples.

Results

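The 81 genes described here are nuclear genes with symbols of protein subunits of the respiratory chain and the ATP synthase, among 53465 genes in the table. They were chosen by symbol: Sdha to Sdhd, Cyc1, and every gene whose name starts with Nduf (assembly factors Ndufaf left out), Uqcr, Cox4i, Cox5, Cox6, Cox7, Cox8 or Atp5. Of 99 genes with such a symbol, 13 were left out as not protein-coding and 5 for being below 1 CPM (read count scaled by library size) in more than 5 libraries. The 81 comprised 38 genes of complex I, 4 of complex II, 9 of complex III, 13 of complex IV and 17 of complex V, grouped by symbol. Atp5s, counted in complex V by its symbol, is listed by RefSeq as Dmac2l. All 81 were also among the 13203 genes tested. The rule uses no measured difference, but it was set with earlier results of these data known.

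RNA was sequenced from cultured mouse peritoneal macrophages of both genotypes, labelled CTR (5 libraries) and Mac-GsαKO (KO here, 5 libraries), from animals 6 to 8 weeks old, with no treatment beyond standard culture in medium with 10% serum. By its name the Mac-GsαKO line lacks Gsα in macrophages, the G protein subunit by which many receptors switch on cAMP synthesis. None of the labels names the driver of the deletion or the genotype of the controls, or says whether a library came from 1 animal or from a pool, so SD and p-values reflect only how these libraries vary. At the genes described CTR 4 and CTR 5 stood apart from the other CTR libraries, and the main results are given with and without them. They were singled out at these same genes, where CTR 4 or CTR 5 was the highest CTR library in 79 of 81. Leaving them out therefore lowers most CTR means of itself, and the calls and p-values of that fit are descriptive only. In bulk RNA, fewer cells of a type and less RNA per cell cannot be told apart.

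The respiratory chain sits in the inner mitochondrial membrane and passes electrons from NADH (through complex I) or succinate (complex II) by way of ubiquinone, complex III, cytochrome c and complex IV to oxygen. Complexes I, III and IV pump protons, and complex V, the ATP synthase, uses the returning protons to make ATP. Most subunits are encoded in the nucleus and imported, and the remainder are encoded by mitochondrial DNA, so each complex other than complex II needs both genomes. In macrophages the balance between this pathway and glycolysis is known to shift with the activation state. Promoters of these genes are known for sites of the factors NRF1, GABP (an ETS factor) and YY1, and Gsα acts through cAMP, whose factor CREB binds the CRE sequence.

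Promoter windows of 300 bases, from 250 before to 50 after an annotated start, were found in RefSeq (GRCm38.p6) for 66 of the 81 genes, 71 windows in all. On both strands, the NRF1 motif (the letters GCGCA and GCGC with any base between them) was in 18 of the 71 windows (25.4%), against 4.6% of all 32851 windows in the RefSeq table. The ETS motif CCGGAAG was in 16 (22.5% against 8.86%), the YY1 motif AAGATGGCG in 7 (9.86% against 1.4%) and a shorter NRF1 form, GCGCATGC, which can overlap the longer one, in 10 (14.1% against 2.71%). The full CRE, TGACGTCA, was in 4 windows (5.63% against 1.79%), those of Ndufa10, Ndufa11, Ndufb2 and Uqcrfs1. Its core TGACGT, which every full CRE contains, was in 10 (14.1% against 7.51%), and the variant TGACGCAA was in 0 (0.49% of all windows). Of the 7 genes that fell, described next, 6 had a window, and 4 of those windows held this longer NRF1 motif. These 4 are shown because their genes fell and they hold that motif. The window of Uqcrfs1 is shown because it holds a full CRE and its gene had a log2 ratio of the opposite sign (0.21, edgeR adjusted p = 0.203). The other genes with a full CRE had negative log2 ratios, at -0.53 for Ndufa11, -0.38 for Ndufa10 and -0.19 for Ndufb2. Not shown are the windows of Ndufa4, without a match to any motif searched, and of Atp5l, with the shorter NRF1 form and the ETS motif. Capitals mark every letter that matches any of the motifs searched.
Ndufs5 (chr4:123718137-123718436, - strand): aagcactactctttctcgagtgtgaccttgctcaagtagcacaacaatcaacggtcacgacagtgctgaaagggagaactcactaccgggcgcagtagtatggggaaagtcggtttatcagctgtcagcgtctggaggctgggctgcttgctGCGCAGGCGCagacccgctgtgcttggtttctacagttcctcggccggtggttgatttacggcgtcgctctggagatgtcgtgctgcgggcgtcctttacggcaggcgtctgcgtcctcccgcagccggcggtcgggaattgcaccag
Ndufa11 (chr17:56717512-56717811, + strand): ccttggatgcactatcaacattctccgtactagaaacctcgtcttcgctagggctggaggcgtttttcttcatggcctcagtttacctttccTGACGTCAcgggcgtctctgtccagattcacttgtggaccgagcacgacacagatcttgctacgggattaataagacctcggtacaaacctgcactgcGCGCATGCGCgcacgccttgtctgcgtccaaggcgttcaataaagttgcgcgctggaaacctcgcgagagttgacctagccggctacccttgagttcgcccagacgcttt
Cox6a1 (chr5:115348909-115349208, - strand): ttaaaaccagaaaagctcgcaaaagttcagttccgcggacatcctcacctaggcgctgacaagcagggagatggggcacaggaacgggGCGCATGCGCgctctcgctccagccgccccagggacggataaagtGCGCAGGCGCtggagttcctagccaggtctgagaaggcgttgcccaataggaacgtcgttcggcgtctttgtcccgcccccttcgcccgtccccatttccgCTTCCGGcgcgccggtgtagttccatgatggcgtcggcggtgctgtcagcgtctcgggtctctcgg
Atp5o (chr16:91931581-91931880, - strand): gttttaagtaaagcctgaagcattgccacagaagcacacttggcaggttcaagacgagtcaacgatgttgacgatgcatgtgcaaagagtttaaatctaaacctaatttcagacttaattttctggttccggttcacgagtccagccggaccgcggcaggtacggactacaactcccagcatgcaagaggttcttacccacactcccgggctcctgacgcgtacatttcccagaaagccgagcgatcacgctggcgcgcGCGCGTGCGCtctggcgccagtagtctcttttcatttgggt
Uqcrfs1 (chr13:30545267-30545566, - strand): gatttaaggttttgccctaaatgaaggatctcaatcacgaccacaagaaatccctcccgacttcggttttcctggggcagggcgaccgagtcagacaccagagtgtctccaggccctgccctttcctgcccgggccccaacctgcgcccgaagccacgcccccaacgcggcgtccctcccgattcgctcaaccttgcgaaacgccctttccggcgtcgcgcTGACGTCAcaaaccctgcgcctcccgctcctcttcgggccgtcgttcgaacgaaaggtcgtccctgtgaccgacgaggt
A match is a run of letters and not a measured binding site.

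Of the subunit transcripts 7 were lower in KO and none was higher at an adjusted p under 0.05, by edgeR's quasi-likelihood test with Benjamini-Hochberg adjustment over the 13203 genes: Ndufs5, Ndufa4, Ndufa11, Uqcrb, Cox6a1, Atp5l and Atp5o. They fell between 1.44-fold (Atp5o) and 1.81-fold (Atp5l), and they belong to complexes I, III, IV and V. Of the 81 subunits 8.64% were thus called lower, against 2.11% of all genes tested, and 0% higher, against 1.83%. At an unadjusted p under 0.05, 27 were lower (11.9% of all genes) and 2 higher (10% of all genes). By DESeq2 17 were lower (5.34% of all genes) and 0 higher (4.62%), and by limma voom 15 were lower (6.76%) and 6 higher (7.77%). In value 69 of the 81 were lower and 12 higher, against 50.8% lower and 49.2% higher over all genes. The median log2 ratio of KO over CTR (the fitted log2 fold change, given below with ± its standard error, while levels carry ± the SD over 5 libraries) was -0.19, beside -0.01 over all genes tested. In 15 of the 81 all 5 KO libraries lay below all 5 CTR libraries (18.5%, against 4.55% of all genes), and in 0 did they lie above (3.25% of all genes). These 15 were the 7 called genes and Ndufs4, Ndufv2, Sdhb, Uqcrc1, Cox6c, Atp5b, Atp5mpl and Atp5f1.

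**Figure D1:**
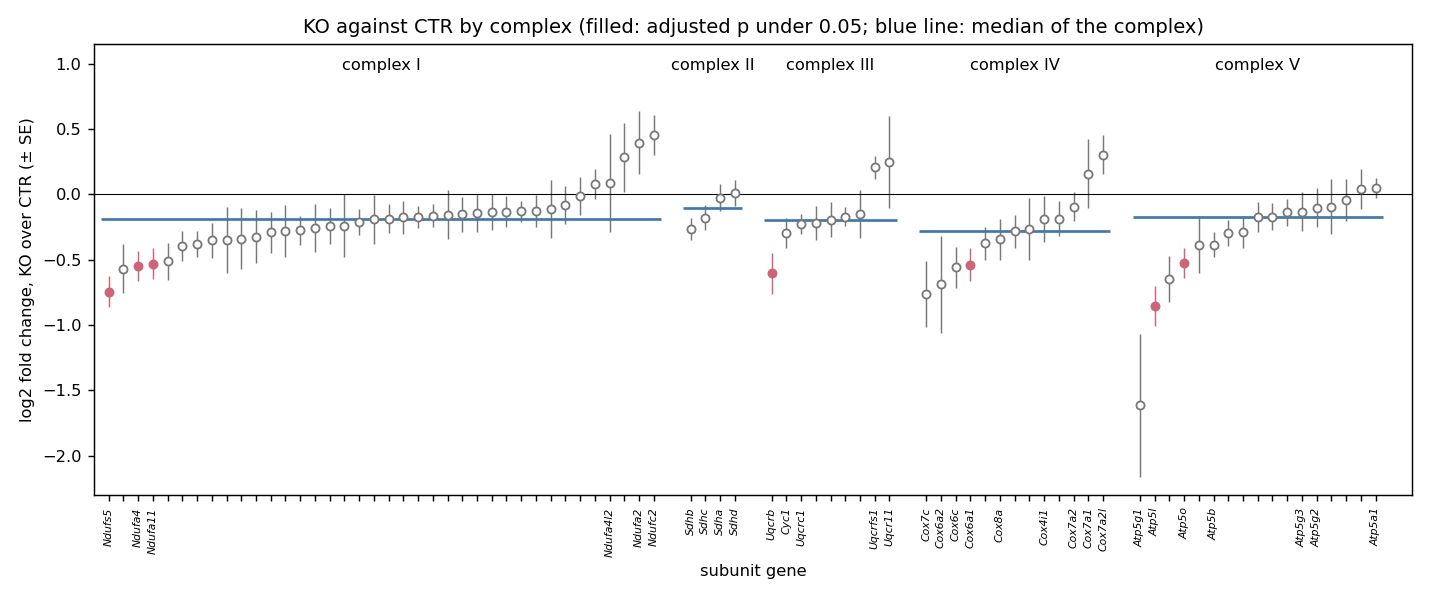
Log2 fold change of KO over CTR with its standard error for each of the 81 subunit genes, ordered within complexes I to V, with names for a chosen subset; filled points have an adjusted p under 0.05 and blue lines mark each complex's median. Most points lie just below 0, with 69 of 81 negative, and the 7 filled points are all negative.

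The size of the median difference rested on CTR 4 and CTR 5. In 79 of the 81 subunits the highest CTR value was that of CTR 4 or CTR 5, and in 62 both lay above CTR 1, CTR 2 and CTR 3. Relative to each gene's own mean over the 10 libraries, the median subunit stood, on the log2 scale, at -0.06, -0.07, -0.01, 0.40 and 0.32 in CTR 1 to CTR 5 and 0.01, -0.17, -0.05, -0.09 and -0.13 in KO 1 to KO 5. The KO libraries overlapped CTR 1 to CTR 3 in this median and lay below CTR 4 and CTR 5. Without CTR 4 and CTR 5 the median log2 ratio was -0.04, 46 subunits were lower and 35 higher in value, and the calls were 8 lower (9.88%, against 3.63% of all genes) and 5 higher (6.17%, against 5.13%). In that fit 6 of the 7 falls kept their call, all but Uqcrb (adjusted p = 0.0592).

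In CTR 4 and CTR 5 short genes in general were higher. Over all 1047 genes tested that are under 1000 bases long, the median deviation was 0.31 in CTR 4 and 0.13 in CTR 5, and between -0.07 and -0.06 in CTR 1 to CTR 3. Genes of 8000 bases or more had -0.17 and -0.14 in CTR 4 and CTR 5. The median length of the subunit genes was 2457 bases, against 5554 over all genes tested. With gene length and GC content fitted as smooth terms in each library and removed, the subunits' median was -0.17, with 14 lower (17.3%, against 2.64% of all genes) and 2 higher (2.47%, against 1.76%). With that correction and without CTR 4 and CTR 5 the median was -0.07, with 12 lower (14.8%, against 3.53% of all genes) and 5 higher (6.17%, against 3.65%). The part that length or the state of these libraries has in each gene's result was not tested beyond these fits.

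**Figure D2:**
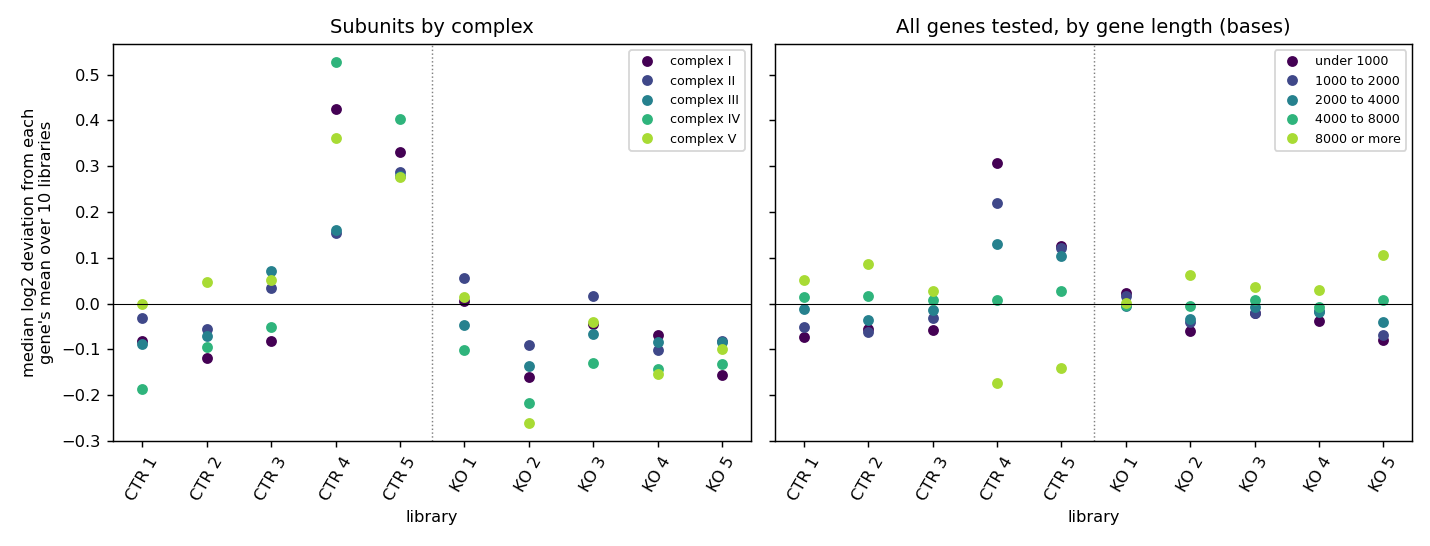
Median log2 deviation from each gene's mean over the 10 libraries, by library, for the subunits of each complex (left) and for all genes tested in 5 bins of gene length (right). CTR 4 and CTR 5 stand above the other 8 libraries for all 5 complexes on the left and for the bins under 4000 bases on the right, and below them for genes of 8000 bases or more.

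**Figure D3:**
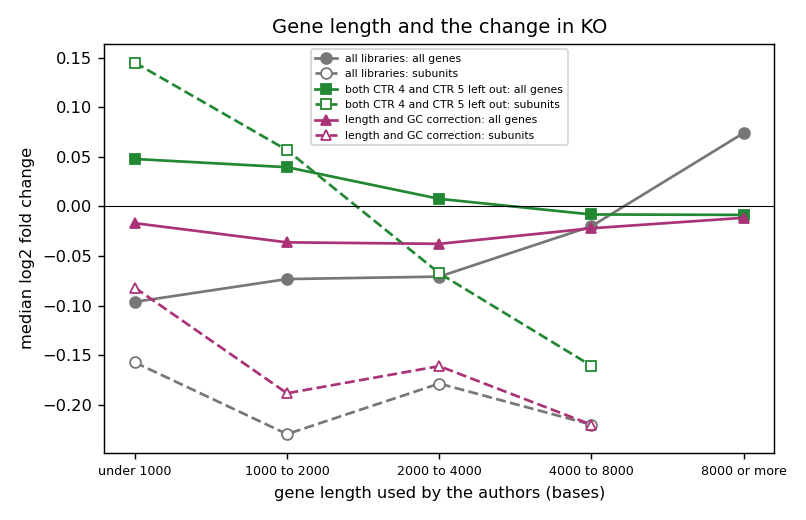
Median log2 ratio of KO over CTR in bins of gene length for all genes tested (solid) and for subunits (dashed, bins with at least 10 subunits), with all libraries, without CTR 4 and CTR 5, and with the length and GC correction. With all libraries the medians of all genes run from -0.10 under 1000 bases to 0.07 at 8000 bases or more, and the subunits lie below all genes in each of the 4 bins drawn for them. Without CTR 4 and CTR 5 the subunits lie above all genes under 1000 bases (0.15 against 0.05) and at 1000 to 2000 bases (0.06 against 0.04). In the longer bins drawn they lie below. With the length and GC correction they lie below in each bin drawn.

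Complex I, the NADH dehydrogenase, had 3 of 38 subunits lower and 0 higher, with a median log2 ratio of -0.19 and a range from -0.75 to 0.45. Without CTR 4 and CTR 5 the median was 0.01, with 18 subunits below and 20 above 0, and 4 called lower and 2 higher. Its summed level was 1749 ± 316 CPM in CTR, beside 1523 ± 69.6 CPM in KO. By library this sum was 1524, 1499, 1539, 2156 and 2027 CPM in CTR 1 to CTR 5 and 1454 to 1617 CPM in KO. CTR 1 to CTR 3 thus lay within the KO range. Ndufs5 stood at 29.8, 24.0, 30.0, 36.5 and 29.3 CPM in CTR 1 to CTR 5 and at 19.4, 14.96, 17.6, 17.8 and 19.4 CPM in KO 1 to KO 5. All 5 KO libraries lay below all 5 CTR libraries, and this accessory subunit fell from a CTR mean of 29.9 ± 4.45 CPM to a KO mean of 17.8 ± 1.799 CPM (log2 ratio -0.75 ± 0.12, edgeR adjusted p = 0.0110). Ndufs5 was still called lower whichever library was removed (edgeR adjusted p at most 0.0422), and without CTR 4 and CTR 5 its log2 ratio was -0.65 (adjusted p = 0.0101).

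Ndufa11 stood at 54.1, 54.1, 58.3, 77.9 and 55.9 CPM in CTR 1 to CTR 5 and at 44.3, 39.9, 47.2, 40.0 and 36.2 CPM in KO 1 to KO 5. Every KO value was below every CTR value, with CTR 4 apart from the other CTR libraries. Ndufa11, an accessory subunit of the membrane arm, fell from a CTR mean of 60.1 ± 10.1 CPM to a KO mean of 41.5 ± 4.26 CPM (log2 ratio -0.53 ± 0.12, edgeR adjusted p = 0.0326), and had -0.42 (adjusted p = 0.0262) without CTR 4 and CTR 5. Ndufa4 stood at 52.4, 54.0, 55.9, 71.6 and 59.4 CPM in CTR 1 to CTR 5 and at 41.3, 33.0, 43.7, 36.9 and 45.3 CPM in KO 1 to KO 5. The genotypes again did not overlap. Ndufa4, grouped here by its symbol, is known today as a subunit of complex IV; it fell from a CTR mean of 58.7 ± 7.70 CPM to a KO mean of 40.0 ± 5.08 CPM (log2 ratio -0.55 ± 0.12, edgeR adjusted p = 0.0258), with -0.43 (adjusted p = 0.0293) without CTR 4 and CTR 5. Leaving out CTR 3, KO 1, KO 2 or KO 4 ended the call for Ndufa4 (edgeR adjusted p at most 0.0753), and leaving out any of these or KO 5 did so for Ndufa11 (at most 0.0975). The related Ndufa4l2, known for its induction by hypoxia, was the lowest subunit of complex I per length and stood between 0.818 and 4.12 CPM (log2 ratio 0.09 ± 0.38, edgeR adjusted p = 0.914).

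Accessory subunits of complex I surround its catalytic core. The 31 genes grouped here as accessory, with Ndufa4 and Ndufa4l2 counted among them by symbol, had a median of -0.19 with 26 of 31 below 0. Without CTR 4 and CTR 5 their median was 0.04 with 12 of 31 below 0. This grouping by role was made after the values were seen. Ndufv2 stood at 63.6, 65.1, 62.6, 94.1 and 67.4 CPM in CTR 1 to CTR 5 and at 56.2, 54.6, 50.9, 51.5 and 54.3 CPM in KO 1 to KO 5. The genotypes did not overlap. Ndufv2, a core iron-sulfur subunit, did not pass with all libraries (log2 ratio -0.40 ± 0.11, edgeR adjusted p = 0.0722) and passed without CTR 4 and CTR 5 at -0.25 (adjusted p = 0.0380); under the length and GC correction it had -0.27 (adjusted p = 0.148).

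Some accessory subunits of complex I stood higher in KO than in CTR 1 to CTR 3, and CTR 4 and CTR 5 lay nearer to KO. Ndufc2 stood at 23.6, 27.5, 26.8, 38.0 and 35.97 CPM in CTR 1 to CTR 5 and at 49.8, 40.9, 41.6, 43.7 and 31.8 CPM in KO 1 to KO 5. Only KO 5 fell within the range of the CTR libraries. Ndufc2, a subunit of the membrane arm, had the largest positive value of the complex (log2 ratio 0.45 ± 0.15, edgeR adjusted p = 0.110), and 0.68 (adjusted p = 0.0176) without CTR 4 and CTR 5. Ndufa2 stood at 27.0, 39.0, 29.3, 53.7 and 73.8 CPM in CTR 1 to CTR 5 and at 69.0, 58.3, 61.8, 56.7 and 46.8 CPM in KO 1 to KO 5. Here CTR 5 was above all 5 KO libraries while CTR 1 to CTR 3 were below them. Ndufa2, a matrix arm subunit with the highest level per length of complex I (92.5 FPKM, the median over 10 libraries of the authors' values), did not pass with all libraries (log2 ratio 0.39 ± 0.24, edgeR adjusted p = 0.368) and had 0.89 (adjusted p = 0.00921) without CTR 4 and CTR 5.

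Complex II, the succinate dehydrogenase that also serves the tricarboxylic acid cycle, had 0 of 4 subunits called in either direction (by edgeR 1 lower and 0 higher at an unadjusted p under 0.05; by DESeq2 Sdhb lower; by voom 0), and a median log2 ratio of -0.10 (-0.03 without CTR 4 and CTR 5). Its summed level was 532 to 668 CPM in CTR libraries and 505 to 569 in KO libraries. Sdhb stood at 122, 129.8, 132, 156 and 152 CPM in CTR 1 to CTR 5 and at 122, 112, 112, 119 and 111 CPM in KO 1 to KO 5. The KO libraries lay below all CTR libraries, though KO 1 and CTR 1 were nearly equal (122.05 and 122.19 CPM). Sdhb, the iron-sulfur subunit, had a log2 ratio of -0.26 ± 0.09 (edgeR adjusted p = 0.101), and -0.15 (adjusted p = 0.180) without CTR 4 and CTR 5; with the length and GC correction it passed at -0.25 (adjusted p = 0.0456). Sdha stood at 189.7, 185, 190.3, 160.2 and 236 CPM in CTR 1 to CTR 5 and at 206, 188, 203, 175 and 174 CPM in KO 1 to KO 5. CTR 4 was the lowest and CTR 5 the highest of these, so the genotypes overlapped. Sdha, the flavoprotein with the succinate site, had a log2 ratio of -0.03 ± 0.10 (edgeR adjusted p = 0.909). The membrane anchors Sdhc and Sdhd had log2 ratios of -0.18 (± 0.09, edgeR adjusted p = 0.294) and 0.01 (± 0.10, edgeR adjusted p = 0.971). Sdhc stood at 113, 109, 119, 135 and 135 CPM in CTR 1 to CTR 5 and at 115, 97.9, 115, 96.9 and 114 CPM in KO 1 to KO 5. Sdhd stood at 109, 108, 102, 123 and 145 CPM in CTR 1 to CTR 5 and at 126, 117, 119.6, 114 and 114 CPM in KO 1 to KO 5. Both overlapped between the genotypes, and without CTR 4 and CTR 5 their log2 ratios were -0.07 and 0.16.

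Complex III, the cytochrome bc1 complex that hands electrons from ubiquinol to cytochrome c, had 1 of 9 subunits lower and 0 higher, with a median log2 ratio of -0.20 (-0.05 without CTR 4 and CTR 5). Its summed level was 765 ± 115 CPM in CTR, beside 681 ± 21.9 CPM in KO. By library this sum was 673, 662, 712.4, 876 and 901 CPM in CTR 1 to CTR 5 and 652 to 712.1 CPM in KO. Uqcrb stood at 53.7, 50.1, 59.5, 90.9 and 69.7 CPM in CTR 1 to CTR 5 and at 45.9, 35.1, 46.2, 41.6 and 44.1 CPM in KO 1 to KO 5. All KO values were below all CTR values, and CTR 4 and CTR 5 were the highest. Uqcrb, a small subunit next to a quinone site, fell from a CTR mean of 64.8 ± 16.4 CPM to a KO mean of 42.6 ± 4.56 CPM (log2 ratio -0.61 ± 0.15, edgeR adjusted p = 0.0495) and stayed under the threshold in 2 of 10 fits with a library removed, namely CTR 2 or CTR 4 (edgeR adjusted p at most 0.135 in the rest). Uqcrb also lost its call with the length and GC correction, at -0.45 (adjusted p = 0.0657). Uqcrc1 stood at 166, 165, 173, 179.6 and 197 CPM in CTR 1 to CTR 5 and at 155, 145, 155, 145 and 151 CPM in KO 1 to KO 5. The genotypes did not overlap, but Uqcrc1, a core protein on the matrix side, did not pass (log2 ratio -0.23 ± 0.08, edgeR adjusted p = 0.105). It was lower by DESeq2 (adjusted p = 0.0342) and with the length and GC correction at -0.26 (adjusted p = 0.0421), and had -0.16 (adjusted p = 0.129) without CTR 4 and CTR 5. Cyc1 stood at 74.0, 75.4, 80.5, 85.3 and 112 CPM in CTR 1 to CTR 5 and at 74.1, 71.0, 69.1, 63.5 and 69.8 CPM in KO 1 to KO 5. KO 1 was just above CTR 1, the lowest CTR value, and the other KO libraries were below all CTR libraries. Cyc1, the cytochrome c1 that passes electrons on, had a log2 ratio of -0.30 ± 0.11 (edgeR adjusted p = 0.155), with -0.14 (adjusted p = 0.252) without CTR 4 and CTR 5 and -0.39 (adjusted p = 0.0427) with the length and GC correction.

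Within complex III the Rieske iron-sulfur subunit had the opposite sign. Uqcrfs1 stood at 85.1, 79.6, 83.4, 103 and 92.4 CPM in CTR 1 to CTR 5 and at 100.4, 100.4, 104, 112 and 94.1 CPM in KO 1 to KO 5. All 5 KO libraries were above CTR 1, CTR 2, CTR 3 and CTR 5, and CTR 4 lay within the KO range. Uqcrfs1 had a log2 ratio of 0.21 ± 0.09 (edgeR adjusted p = 0.203), and 0.31 (adjusted p = 0.0333) without CTR 4 and CTR 5, with 0.27 and an adjusted p of 0.0470 with the length and GC correction. Uqcr11 stood at 13.7, 15.7, 14.2, 29.1 and 57.4 CPM in CTR 1 to CTR 5 and at 39.5, 27.7, 29.7, 30.3 and 26.9 CPM in KO 1 to KO 5. The CTR libraries ranged over more than the KO libraries, with CTR 5 the highest of all 10. Uqcr11, a small accessory subunit, had a log2 ratio of 0.25 ± 0.35 (edgeR adjusted p = 0.716) with all libraries and 1.09 (adjusted p = 0.00351) without CTR 4 and CTR 5.

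**Figure D4:**
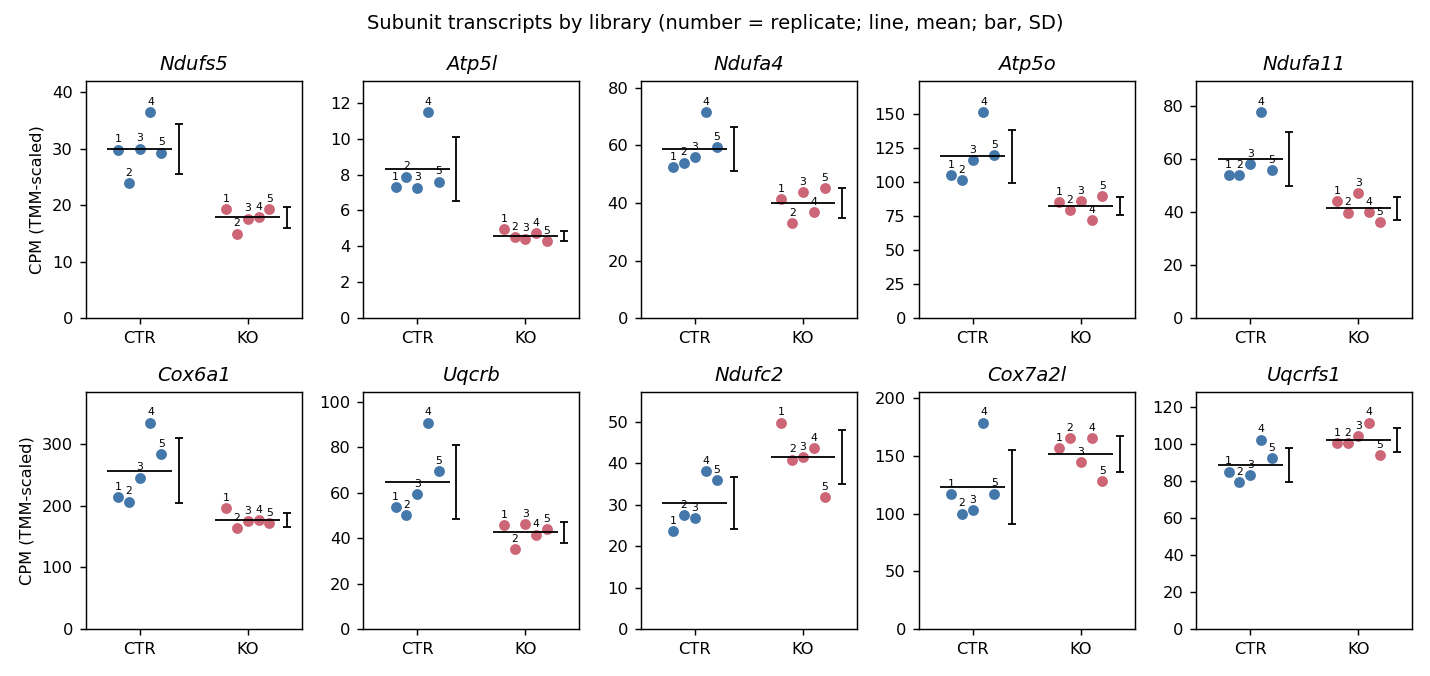
CPM on TMM-scaled library sizes in every library for the 7 subunits with an adjusted p under 0.05 and for Ndufc2, Cox7a2l and Uqcrfs1, which passed upward without CTR 4 and CTR 5; numbers are replicates, lines means and bars SD. In the first 7 panels all KO points lie below all CTR points, and in the last 3 the genotypes overlap.

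Complex IV, cytochrome c oxidase, had 1 of 13 subunits lower and 0 higher, with Ndufa4 counted under complex I by its symbol. Its median log2 ratio, -0.28, was -0.03 without CTR 4 and CTR 5, and its summed level was 1262 ± 283 CPM in CTR, beside 1062 ± 63.7 CPM in KO. By library this sum was 1026, 1053, 1095, 1630 and 1504 CPM in CTR 1 to CTR 5 and 980 to 1152 CPM in KO. Here too CTR 1 to CTR 3 lay within the KO range. Cox6a1 stood at 214, 207, 246, 335 and 284 CPM in CTR 1 to CTR 5 and at 196, 164, 176, 177 and 172 CPM in KO 1 to KO 5. The genotypes did not overlap, and CTR 4 and CTR 5 were the highest. Cox6a1, the widely expressed isoform of a regulatory subunit, fell from a CTR mean of 257 ± 53.2 CPM to a KO mean of 177 ± 11.9 CPM (log2 ratio -0.54 ± 0.13, edgeR adjusted p = 0.0388), with -0.33 (adjusted p = 0.0409) without CTR 4 and CTR 5. Cox6a1 stayed under the threshold in 3 of 10 fits with a library removed, namely CTR 1, CTR 2 or CTR 4 (edgeR adjusted p at most 0.111 in the rest). Its muscle isoform Cox6a2 stood between 0.677 and 4.32 CPM, highest in CTR 4 (log2 ratio -0.69 ± 0.37, edgeR adjusted p = 0.306), with -0.14 (adjusted p = 0.819) without CTR 4 and CTR 5.

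Cox4i1 stood at 182, 183, 171, 295 and 299 CPM in CTR 1 to CTR 5 and at 221, 218, 175, 213 and 162 CPM in KO 1 to KO 5. CTR 4 and CTR 5 were the highest, and the KO libraries spanned the range of CTR 1 to CTR 3. Cox4i1, an early-assembling subunit, had a log2 ratio of -0.19 ± 0.18 (edgeR adjusted p = 0.559), and 0.15 (adjusted p = 0.449) without CTR 4 and CTR 5. Its lung isoform Cox4i2 had 22 counts over all 10 libraries and was among the 5 genes below the CPM minimum. Cox7a2l stood at 117, 99.96, 103, 179 and 117 CPM in CTR 1 to CTR 5 and at 157, 165, 145, 165 and 128 CPM in KO 1 to KO 5. All KO values were above 4 of the CTR libraries, and CTR 4 was the highest of all. Cox7a2l, which joins complexes III and IV into supercomplexes, had a log2 ratio of 0.30 ± 0.15 (edgeR adjusted p = 0.263), and 0.51 (adjusted p = 0.0177) without CTR 4 and CTR 5; it also passed without CTR 4 alone. Cox7a2, its paralogue in the complex itself, had -0.09 (edgeR adjusted p = 0.647; 0.06 without CTR 4 and CTR 5), and the muscle isoform Cox7a1 stood at 1.55 ± 0.328 CPM over CTR and 1.73 ± 0.569 over KO.

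Cox8a, a small subunit, had the highest level per length of the 81 genes (266 FPKM). Cox8a stood at 133, 153, 147, 236 and 225 CPM in CTR 1 to CTR 5 and at 162, 132, 141, 142 and 128 CPM in KO 1 to KO 5. CTR 4 and CTR 5 stood above the other 8 libraries, which overlapped (log2 ratio -0.34 ± 0.16, edgeR adjusted p = 0.227). Its log2 ratio was -0.03 (adjusted p = 0.845) without CTR 4 and CTR 5, and with the length and GC correction -0.34 (adjusted p = 0.0373). Cox6c stood at 40.4, 40.1, 48.1, 74.3 and 53.1 CPM in CTR 1 to CTR 5 and at 35.7, 31.4, 38.0, 33.0 and 35.8 CPM in KO 1 to KO 5. The genotypes did not overlap, but Cox6c did not pass (log2 ratio -0.56 ± 0.16, edgeR adjusted p = 0.0668), nor without CTR 4 and CTR 5 at -0.30 (adjusted p = 0.0713); DESeq2 and voom called it lower (adjusted p = 0.0185 and 0.0342). Cox7c stood at 4.19, 6.72, 4.91, 11.2 and 6.80 CPM in CTR 1 to CTR 5 and at 3.65, 5.23, 3.21, 3.54 and 4.19 CPM in KO 1 to KO 5. KO 2 lay within the CTR range, and KO 5 was nearly equal to CTR 1, the lowest CTR value. Cox7c, a small subunit, had the most negative log2 ratio of the complex and did not pass (log2 ratio -0.76 ± 0.25, edgeR adjusted p = 0.104), with -0.40 (adjusted p = 0.251) without CTR 4 and CTR 5, and means of 6.77 ± 2.73 CPM over CTR and 3.96 ± 0.789 over KO. Many subunit genes have processed pseudogenes with near-identical sequence, and no source used here gives how reads matching both were counted, so levels of such genes are uncertain. As examples, the pseudogenes Ndufb4c and Ndufab1-ps stood at 28.6 and 29.4 CPM in CTR, and Ndufab1-ps was lower in KO (log2 ratio -0.71 ± 0.13, edgeR adjusted p = 0.0195). The subunit genes Ndufb4 and Ndufab1 stood lower, at 2.40 and 12.9 CPM in CTR. Ndufab1 had a log2 ratio of 0.08 ± 0.11 (edgeR adjusted p = 0.721), unlike its pseudogene. Atp5l, a called subunit described next, also has pseudogenes in the gene list.

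Complex V, the ATP synthase, had 2 of 17 genes lower and 0 higher, with a median log2 ratio of -0.18 (-0.08 without CTR 4 and CTR 5). Its summed level was 2219 ± 248 CPM in CTR, beside 1919 ± 124 CPM in KO. By library this sum was 1979, 2025, 2122, 2480 and 2488 CPM in CTR 1 to CTR 5 and 1779 to 2057 CPM in KO. Atp5l stood at 7.32, 7.89, 7.28, 11.5 and 7.61 CPM in CTR 1 to CTR 5 and at 4.98, 4.51, 4.43, 4.73 and 4.31 CPM in KO 1 to KO 5. The genotypes did not overlap. Atp5l, the g subunit in the membrane where ATP synthase dimers meet, fell from a CTR mean of 8.32 ± 1.79 CPM to a KO mean of 4.59 ± 0.267 CPM (log2 ratio -0.85 ± 0.15, edgeR adjusted p = 0.0147), and -0.70 (adjusted p = 0.00954) without CTR 4 and CTR 5. Among the 10 fits with a library removed it lost its call in that without KO 2 (edgeR adjusted p = 0.0526). Atp5o stood at 105, 102, 116, 151 and 119.7 CPM in CTR 1 to CTR 5 and at 85.2, 79.4, 85.9, 72.2 and 89.5 CPM in KO 1 to KO 5. Again all KO values were below all CTR values. Atp5o, the stalk protein that ties the catalytic head to the membrane part, fell from a CTR mean of 119 ± 19.7 CPM to a KO mean of 82.4 ± 6.76 CPM (log2 ratio -0.53 ± 0.11, edgeR adjusted p = 0.0294), and -0.38 (adjusted p = 0.0242) without CTR 4 and CTR 5. Leaving out CTR 3 or any of KO 1 to KO 4 ended this call (edgeR adjusted p at most 0.0899).

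The catalytic head gave unequal values for its main pair. Atp5b stood at 522.5, 548, 577, 589 and 724 CPM in CTR 1 to CTR 5 and at 477, 425, 475, 409 and 481 CPM in KO 1 to KO 5. The genotypes did not overlap. Atp5b, the beta subunit with the catalytic sites, stood just outside the threshold with all libraries (log2 ratio -0.39 ± 0.10, edgeR adjusted p = 0.0502) and passed without CTR 4 and CTR 5 at -0.28 (adjusted p = 0.0479). Atp5a1 stood at 416, 433, 464, 455 and 489.9 CPM in CTR 1 to CTR 5 and at 488, 448, 439, 449 and 504 CPM in KO 1 to KO 5. The genotypes overlapped throughout. Atp5a1, the alpha subunit that alternates with beta in the head, had a log2 ratio of 0.04 ± 0.08 (edgeR adjusted p = 0.768), and the difference between the changes of these genes was not tested. The 5 genes of the head had a median of -0.04 and 0 of 5 called by edgeR (1 lower and 0 higher at an unadjusted p under 0.05, and 1 lower by DESeq2 and by voom), the 4 of the peripheral stalk had -0.24 with Atp5o lower, and the 4 small membrane subunits (Atp5l, Atp5k, Atp5j2 and Atp5mpl) had -0.52 with Atp5l lower. These medians were, when CTR 4 and CTR 5 were left out, 0.09 for the head (Atp5b lower), -0.16 for the stalk and -0.30 for the small membrane subunits. Every gene of the stalk and small membrane sets was lower in value with and without CTR 4 and CTR 5. As in complex I, these role groups were formed after the values were seen.

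The membrane ring that turns with proton flow is made of a c subunit encoded by Atp5g1, Atp5g2 and Atp5g3, whose mature proteins are identical. Atp5g1 stood at 11.8, 11.2, 15.6, 29.7 and 15.9 CPM in CTR 1 to CTR 5 and at 12.2, 4.92, 1.05, 7.99 and 1.26 CPM in KO 1 to KO 5. KO 3 and KO 5 were near 1 CPM while KO 1 lay within the CTR range. Atp5g1 had the most negative log2 ratio of all 81 genes but did not pass (log2 ratio -1.62 ± 0.55, edgeR adjusted p = 0.112), and -1.22 (adjusted p = 0.239) without CTR 4 and CTR 5. Atp5g3 stood at 84.0, 105, 93.5, 123 and 154 CPM in CTR 1 to CTR 5 and at 108, 88.0, 112, 99.3 and 103 CPM in KO 1 to KO 5. The genotypes overlapped (log2 ratio -0.13 ± 0.15, edgeR adjusted p = 0.635; 0.12 without CTR 4 and CTR 5). Atp5g2 stood at 3.81 ± 0.142 CPM over CTR and 3.55 ± 0.521 over KO (log2 ratio -0.10 ± 0.15, edgeR adjusted p = 0.717).

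Related genes carry other symbols in the gene list and so fell outside the rule, and they were looked up after the members' values were seen, apart from the inhibitor. Usmg5 stood at 35.5, 29.2, 33.2, 47.2 and 38.2 CPM in CTR 1 to CTR 5 and at 9.74, 10.7, 17.4, 8.10 and 22.8 CPM in KO 1 to KO 5. All KO values were below all CTR values. Usmg5, listed by RefSeq as Atp5md and known as a small ATP synthase subunit of the dimer interface, fell from a CTR mean of 36.7 ± 6.76 CPM to a KO mean of 13.7 ± 6.17 CPM (log2 ratio -1.42 ± 0.26, edgeR adjusted p = 0.0169; -1.25 with an adjusted p of 0.0267 without CTR 4 and CTR 5). Ndufb1-ps stood at 36.5, 39.8, 37.0, 61.6 and 42.2 CPM in CTR 1 to CTR 5 and at 25.7, 15.6, 28.3, 15.1 and 22.3 CPM in KO 1 to KO 5. The gene named Ndufb1-ps, which RefSeq lists as protein-coding Ndufb1 of complex I, likewise separated the genotypes and fell from a CTR mean of 43.4 ± 10.4 CPM to a KO mean of 21.4 ± 5.93 CPM (log2 ratio -1.02 ± 0.20, edgeR adjusted p = 0.0216). Atpif1, the inhibitor that blocks ATP hydrolysis by the synthase, stood at 106 ± 27.9 CPM over CTR and 76.1 ± 3.61 over KO (log2 ratio -0.48 ± 0.15, edgeR adjusted p = 0.0875). Without CTR 4 and CTR 5 its log2 ratio was -0.20 (adjusted p = 0.0835), and with the length and GC correction it passed at -0.46 (adjusted p = 0.0336).

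Per length, the median level of a subunit ran from 0.793 FPKM (Atp5l) to 266 FPKM (Cox8a), with 25.7 FPKM at the middle of the 81. The highest in each complex were Ndufa2 (92.5), Sdhd (93.7), Uqcrfs1 (69.6), Cox8a (266) and Atp5a1 (86.0), and the lowest were Ndufa4l2 (1.29), Sdhc (30.2), Uqcr11 (24.9), Cox6a2 (2.24) and Atp5l, all in FPKM. These levels rest on the deposited gene lengths, which were at the median 1.89 times the longest GENCODE M21 transcript and more than 2 times for 34 of the 81. For Atp5b it was 6918 bases against a longest transcript of 1916, so its FPKM understates it beside genes whose lengths match, such as Uqcrfs1 at 1363 bases in both.

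Among the subunits encoded by mitochondrial DNA, 4 of 13 were lower (2.11% of all genes) and 0 higher (1.83%). In value 13 of 13 were lower, with a median log2 ratio of -0.54. At an unadjusted p under 0.05 by edgeR, 10 were lower and 0 higher. DESeq2 called 7 lower and 0 higher, and voom 10 lower and 0 higher. Without CTR 4 and CTR 5 the median was -0.61, with 8 lower (3.63% of all genes) and 0 higher (5.13%). It was -0.29 with the length and GC correction. Under that correction mt-Nd4 and mt-Cytb were outside the threshold (edgeR adjusted p = 0.0505 and 0.0512). mt-Nd2, a complex I subunit, fell from a CTR mean of 724 ± 132 CPM to a KO mean of 449 ± 40.6 CPM (log2 ratio -0.69 ± 0.12, edgeR adjusted p = 0.0169), mt-Nd4 of the same complex from a CTR mean of 993 ± 141 CPM to a KO mean of 681 ± 30.2 CPM (log2 ratio -0.54 ± 0.10, edgeR adjusted p = 0.0169) and mt-Cytb, the cytochrome b of complex III, from a CTR mean of 1457 ± 219 CPM to a KO mean of 976 ± 148 CPM (log2 ratio -0.58 ± 0.13, edgeR adjusted p = 0.0313). The summed level of these 13 genes was lower in CTR 5 (12944 CPM) than in CTR 1 to CTR 4 (16241 to 18970 CPM). In KO this sum was 11530 to 13051 CPM, so CTR 5 lay within the KO range. The summed level of the nuclear subunits was high in CTR 5, so the libraries that were high differed between the sets.

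Of 54 tested assembly factors, which build the complexes without staying in them, 2 were lower (2.11% of all genes) and 0 higher (1.83%). Their median was -0.11. At an unadjusted p under 0.05, 9 were lower and 1 higher, DESeq2 called 4 lower, and voom 4 lower and 1 higher. Without CTR 4 and CTR 5 the median was 0.03, with 3 lower (3.63% of all genes) and 2 higher (5.13%). Cox16, needed for complex IV, fell from a CTR mean of 16.3 ± 2.32 CPM to a KO mean of 11.3 ± 0.716 CPM (log2 ratio -0.52 ± 0.11, edgeR adjusted p = 0.0293), and Sco1, a copper chaperone of the same complex, from a CTR mean of 10.7 ± 1.60 CPM to a KO mean of 6.83 ± 0.881 CPM (log2 ratio -0.65 ± 0.14, edgeR adjusted p = 0.0297). With the length and GC correction Cox16 was outside the threshold (edgeR adjusted p = 0.0753). Of 18 genes of pyruvate dehydrogenase and the tricarboxylic acid cycle 0 passed edgeR's test in either direction, with 17 of 18 lower in value and a median of -0.21; 8 were lower and 0 higher at an unadjusted p under 0.05, and DESeq2 and voom each called 1 lower. The median was -0.15 without CTR 4 and CTR 5, and 0 passed by edgeR. The log2 ratios of lowest p were -0.36 ± 0.11 for Suclg2 (edgeR adjusted p = 0.0902), -0.29 ± 0.10 for Idh2 (edgeR adjusted p = 0.109) and -0.22 ± 0.07 for Fh1 (edgeR adjusted p = 0.119), all enzymes of the cycle; Idh2 was lower with the length and GC correction (adjusted p = 0.0493). Of 17 carrier genes (cytochrome c, electron transfer flavoproteins and ubiquinone synthesis) 0 passed edgeR's test, with a median of -0.05; 6 were lower and 0 higher at an unadjusted p under 0.05, DESeq2 called 1 lower, and voom 1 lower and 1 higher. The median was 0.04 without CTR 4 and CTR 5, and Coq10a, which binds ubiquinone, was then higher at 0.56 (adjusted p = 0.00710). Those of lowest p were -0.24 ± 0.08 for Etfdh (edgeR adjusted p = 0.103), which feeds electrons to ubiquinone, -0.47 ± 0.16 for Cycs (edgeR adjusted p = 0.107), which is cytochrome c, and -0.50 ± 0.18 for Pdss1 (edgeR adjusted p = 0.127), of ubiquinone synthesis. Of 13 genes of the outer membrane, import and shape 2 were lower (2.11% of all genes) and 0 higher (1.83%). In value 5 of 13 were below 0, with a median of 0.01. The 2 were Timm23, the channel of the inner membrane (log2 ratio -0.56 ± 0.13, edgeR adjusted p = 0.0387), and the porin Vdac3 (log2 ratio -0.38 ± 0.09, edgeR adjusted p = 0.0437). Without CTR 4 and CTR 5 neither passed, at -0.36 (adjusted p = 0.0575) and -0.30 (adjusted p = 0.0556) by edgeR, and Tomm20, an import receptor, was higher at 0.23 (adjusted p = 0.0416). With the length and GC correction Vdac3 did not pass either (edgeR adjusted p = 0.107). The next by p was -0.24 ± 0.10 for Tomm22 (edgeR adjusted p = 0.191), also an import receptor. Of 12 transcription factors and coactivators of these genes 0 passed edgeR's test, with a median of -0.04; at an unadjusted p under 0.05 1 was lower and 1 higher, DESeq2 called 1 lower and 1 higher, and voom 1 lower and 2 higher. The median was -0.12 without CTR 4 and CTR 5, and Esrra, a nuclear receptor that activates respiratory genes, was then higher at 0.46 (adjusted p = 0.0101). Tfb1m, which acts in mitochondrial ribosome biogenesis, did not pass (log2 ratio -0.57 ± 0.15, edgeR adjusted p = 0.0537). The next by p were 0.29 ± 0.09 for Yy1 (edgeR adjusted p = 0.0987) and -0.20 ± 0.10 for Tfam (edgeR adjusted p = 0.236), the latter a packaging factor of mitochondrial DNA.

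The targeted gene, Gnas, fell from a CTR mean of 435 ± 62.4 CPM to a KO mean of 40.2 ± 2.62 CPM (log2 ratio -3.43 ± 0.11, edgeR adjusted p = 9.16e-09), and it was lower in all 5 KO libraries than in any CTR library. Total counts lay between 15664243 and 19235777 per library. All 8 macrophage markers were tested. By edgeR Csf1r and Itgam were higher and Lyz2 lower (log2 ratio -1.52 ± 0.10, edgeR adjusted p = 2.03e-05). The median log2 ratio of the 8 markers was 0.14, with 3 of 8 below 0. The sum of the 8 lay between 30288 and 38749 CPM in CTR and 14889 and 16443 CPM in KO, a fall that most of them did not share. Among neutrophil markers S100a8 was lower (log2 ratio -0.56 ± 0.14, edgeR adjusted p = 0.0443), a call lost without CTR 4 and CTR 5 (adjusted p = 0.0672). Itgam was outside the threshold with the length and GC correction (adjusted p = 0.0588). Summed levels of markers of other cell types were low: up to 8.57 CPM for B cells, 1.22 for T and NK cells, 27.4 for neutrophils, 11.1 for mast cells, 1.93 for dendritic cells, 29.6 for mesothelial cells and 0.232 for erythroid cells in any library. Fibroblast markers summed to 128 CPM in CTR 5, 29.2 in CTR 4 and 30.1 to 58.9 elsewhere. Ly6g, a defining neutrophil marker, was at 0 counts in all 10 libraries. Their part in the subunits' values was not tested.

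**Figure D5:**
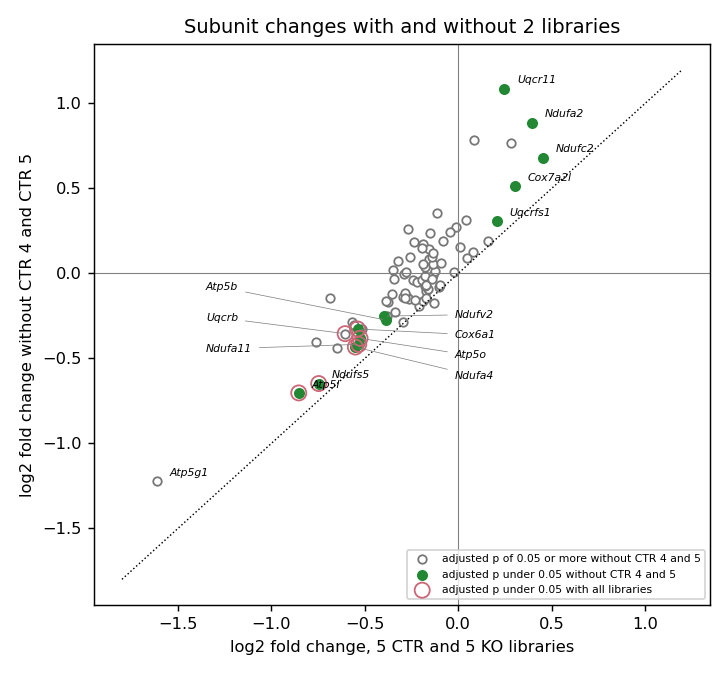
Log2 fold change of KO over CTR for the 81 subunit genes with all 10 libraries (horizontal) and without CTR 4 and CTR 5 (vertical); the dotted line marks equal values, red rings the 7 calls with all libraries and green points the 13 calls (8 lower, 5 higher) without CTR 4 and CTR 5. Most points lie above the dotted line, which shows the shift of the median from -0.19 to -0.04.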

How the data were processed

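The members and lists were chosen with earlier results of these data known. Per the submitters' processing notes, CASAVA 1.8, HISAT2, SAMtools 1.3.1, edgeR and the build GRCm39 were used, with no order or role; no source used here names the counting tool, its strand setting or the annotation. As deposited, the values are raw read counts by Ensembl gene together with the authors' FPKM. FPKM equalled counts over gene length and column total to within a relative 1.8e-05 at 50 or more counts, and served for levels between genes and for the authors' gene length. Symbols were matched for 53274 of 53465 genes, and the 191 unmatched genes held 0.0403% of the counts; biotype, GC content and longest transcripts came from GENCODE M21 (GRCm38).

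The test used edgeR 4.0.16 (R 4.3.3): filterByExpr defaults (13203 genes kept), TMM scaling, the two-sided quasi-likelihood test with genotype as the only term, and Benjamini-Hochberg adjustment over all genes tested at 0.05. CPM are on TMM-scaled library sizes, values are mean ± SD over 5 libraries, and the ± of a log2 ratio is its standard error, taken as its size divided by the root of the F statistic. Deviations by library used log2(CPM + 0.5). Totals were 15664243 to 18028974 counts in CTR and 16877249 to 19235777 in KO, and 3 counts, the limit a count of 0 allows, came to at most 0.192 CPM, for counting error only. Other settings were DESeq2 1.42.0 (size factors, Wald test), library size only, 2 other filters, limma 3.58.1 voom with quality weights, a robust fit, the replicate number as a block, libraries left out, and a length and GC correction (mgcv 1.9.3), which also removes any genotype difference that follows length or GC; its use together with leaving out CTR 4 and CTR 5 was added after the data were seen. Named were all called members, those with the lowest p, the highest and lowest level and the largest change either way of each complex, paralogue sets, and up to 3 genes of each other list. Ndufv2, Usmg5, Ndufb1-ps, the pseudogenes with Ndufb4 and Ndufab1, and the role groups lie outside this rule.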

Additional observations from a re-analysis of the deposited data

Results flagged for a closer look

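In some groups of 5 libraries the gap of a single library to its nearest neighbour was too large a part of the range by Dixon's test. Atp5l stood at 11.5 CPM in CTR 4, against 7.28 to 7.89 CPM in the other 4 CTR libraries. Ndufa11 stood at 77.9 CPM in CTR 4, against 54.1 to 58.3 CPM in the other 4 CTR libraries. Uqcr11 stood at 39.5 CPM in KO 1, against 26.9 to 30.3 CPM in the other 4 KO libraries. Cox7a2l stood at 179 CPM in CTR 4, against 99.96 to 117 CPM in the other 4 CTR libraries. Atp5g1 stood at 29.7 CPM in CTR 4, against 11.2 to 15.9 CPM in the other 4 CTR libraries. These were 5 of 74 groups checked, and chance flags about 1 in 20. In 4 of these 5 the library was CTR 4.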

How the results depend on the processing

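Every alternative fit kept a negative median log2 ratio over all 81 subunits, from -0.25 to -0.04. Leaving out each library in turn gave 1 to 11 subunits lower and 0 to 1 higher: 2 lower without CTR 3, KO 1 or KO 4, 1 without KO 2, 4 without KO 3, and 11 lower with 1 higher without CTR 4. The share of all genes called moved with them, with 0.494%, 0.592% and 0.54% lower without CTR 3, KO 1 and KO 4, 0.225% without KO 2, 1.24% without KO 3, and 2.87% lower with 3.62% higher without CTR 4. The medians then ranged from -0.25 to -0.15 for all subunits, from -0.26 to -0.14 for complex I, from -0.13 to -0.038 for complex II, from -0.25 to -0.087 for complex III, from -0.39 to -0.17 for complex IV, from -0.23 to -0.16 for complex V. With no filter on low counts 4 were lower (0.57% of all genes), with DESeq2's Wald test 17, and with voom 15 were lower and 6 higher and the median of complex IV was -0.051. Without CTR 4 and CTR 5, 8 were lower and 5 higher, with medians of 0.010 for complex I, -0.051 for complex III and -0.034 for complex IV. With the length and GC correction 14 were lower and 2 higher, and with it and without CTR 4 and CTR 5 12 were lower and 5 higher, with -0.068 for complex III and -0.032 for complex IV. The cause of these shifts was not tested. The labels do not say whether libraries of equal replicate number belong together. The residuals of same-numbered libraries correlated between -0.126 and 0.0582 across genes, and 0 of 10 libraries correlated best with their own number. Weak correlations cannot tell whether such libraries shared an origin or a day. With the replicate number as a block 1 subunit was lower (Ndufs5; 0.341% of all genes), and 3 were lower with the block and the length and GC correction (0.863% of all genes). With library size only the median of all genes moved to 0.031, and 7 subunits were lower. Ndufs5 was lower in every fit. At a few CPM, as for Cox6a2 (SE 0.37) and Cox7a1 (SE 0.27), only larger changes could be detected.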
